A study of Mus musculus with 48 samples.

Results

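Ly6Chi MHCIIlo cells were sorted from colon tumours, and samples labelled ko for Ccl17 were compared with samples labelled ctrl. The members were chosen by their titles, which name the sorted population, the genotype and a replicate number from 1 to 4. They make up 8 of the 48 libraries in the series, with 4 per genotype. Every library of the series is labelled AOM DSS and day 85, the model in which the mutagen azoxymethane and the gut irritant dextran sulfate sodium give mice colon tumours. The other 3 sorted populations were Ly6Chi MHCIIhi, Ly6Clo MHCIIlo and Ly6Clo MHCIIhi. The design text speaks of ko mice kept in the same cages as controls and of ko mice kept apart, but housing is not given per sample, and the sources used here do not give strain, age, the ko allele or the number of mice per sample.

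Ly6Chi monocytes leave the blood, enter inflamed or tumour tissue and there turn into macrophages and dendritic cells, losing Ly6C and gaining MHC class II as they mature. Cells that still have high Ly6C and low MHC class II are the most recent arrivals on that path. Ccl17 encodes a chemokine made mainly by dendritic cells, which attracts cells that bear the receptor CCR4. Monocytes are not a main source of it.

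Each library was marked by a barcode of 6 bases, which also serves as its column name in the count table. In this comparison the barcodes split completely by genotype, so they are shown first, with every G or C in capitals.
ctrl 1: aaattG
ctrl 2: atGaat
ctrl 3: taaGat
ctrl 4: ttaGtt
ko 1: GttCGa
ko 2: CCCtGG
ko 3: CtGCGG
ko 4: GGCCaC
All 4 ctrl barcodes hold 1 G or C, called A/T-rich here, whereas ko 1 holds 3 and the other ko barcodes hold 5, called G/C-rich. Genotype and barcode class therefore cannot be told apart within these 8 libraries. The difference by barcode class was measured elsewhere in the series, in 5 replicates of Ly6Clo MHCIIhi that had a library of each class. Both libraries of a pair share a replicate number in their titles, which do not say whether they came from the same RNA. Their barcodes were the following.
ctrl 5, A/T-rich: aatCtt
ctrl 5, G/C-rich: tCtGCa
ctrl 6, A/T-rich: atttCa
ctrl 6, G/C-rich: CCGGaC
ctrl 7, A/T-rich: taGtaa
ctrl 7, G/C-rich: GaCCGC
ctrl 8, A/T-rich: tttaCa
ctrl 8, G/C-rich: GGCGtC
ko 4, A/T-rich: ttGaaa
ko 4, G/C-rich: GtaCCG
Each gene below is given with its ko minus ctrl difference in Ly6Chi MHCIIlo and with its G/C-rich minus A/T-rich difference inside these 5 replicates. Whether class makes the same difference in Ly6Chi cells was not tested.

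The 8 libraries held 222560 to 388815 counts and 10933 to 12309 detected genes. Ly6c2, which encodes the Ly6C protein used in the sort, averaged 1114 ± 324 CPM (counts scaled to library size, SD, n = 4) in ctrl and 1176 ± 137 in ko, against 24 to 53 in the Ly6Clo groups when all populations were scaled together. Cd74, the invariant chain of MHC class II, averaged 1621 ± 439 and 1883 ± 555 CPM on that scale, against 7272 to 13570 in the MHCIIhi groups. The monocyte markers Ccr2, Plac8 and Vcan were detected in all 8 libraries. C1qa, a macrophage marker, averaged 221 and 163 CPM against 2580 to 3173 in the Ly6Clo groups. The macrophage markers Adgre1, C1qb, C1qc, Mertk and Mrc1 were also below every Ly6Clo group mean. Fcgr1, another macrophage marker, was not set apart, at 92.6 CPM in ctrl and 147 in ko against 104 to 165 in the Ly6Clo groups. Apart from Fcgr1, these markers go with the sorted population. Neutrophil transcripts were present in both genotypes, with summed levels of 14 tested and 4 untested markers from 8540 to 19881 CPM in ctrl and 6411 to 20254 in ko.

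Ccl17 itself was at the limit of detection. Its level was 18.7, 4.51, 23.1 and 0 CPM in ctrl 1 to 4 and 8.83, 4.39, 0 and 2.62 CPM in ko 1 to 4, from 14 and 5 counts in all. The highest values were in ctrl, but the groups overlapped, and the difference in mean log2(CPM + 1) of -0.94 had a two-sided exact permutation p of 0.457, where the smallest possible is 0.0286. Ccl22, the other CCR4 ligand, ranged from 0 to 13.5 CPM, and Ccr4, the receptor, had no count in any library, which allows up to 7.85 to 13.5 CPM per library. These libraries therefore do not check the genotype labels.

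Only 3 of 3966 genes tested (0.0756%) passed an adjusted p of 0.05, and all 3 fell in ko: the cytoskeletal regulators Gas7 and Dpysl2, and a transcript named RP24-159O13.1. At an unadjusted p under 0.05, 250 genes (6.30%) were lower and 194 (4.89%) higher in ko. In 156 genes (3.93%) every ko library was below every ctrl library, and in 144 (3.63%) every ko library was above. Because RNA was pooled over sorted cells, fewer cells expressing a gene and less RNA per cell cannot be told apart.

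Gas7 encodes an F-BAR protein that binds actin and bends membranes (chr11:67455437-67688990, GRCm38, plus strand). Its level was 243, 207, 109 and 186 CPM in ctrl 1 to 4 and 58.8, 57.1, 54.6 and 54.9 CPM in ko 1 to 4. The ko libraries lay within a narrow band, below the lowest ctrl library. Gas7 fell by 1.72 ± 0.26 on the log2 scale (SE, adjusted p = 0.0171). By barcode class in Ly6Clo MHCIIhi the same gene was also lower, at -1.30 ± 0.17 (adjusted p = 3.7e-05).

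Dpysl2 encodes CRMP2, which binds tubulin and promotes microtubule assembly (chr14:66802864-66868688, minus strand). It stood at 187, 221, 89.0 and 142 CPM in ctrl 1 to 4 and at 53.0, 57.1, 22.5 and 31.4 CPM in ko 1 to 4. Again the groups did not overlap. Dpysl2 fell by 1.97 ± 0.34 (adjusted p = 0.0419), and its barcode difference was larger, at -2.38 ± 0.15 (adjusted p = 6.2e-11), the smallest p of all genes in that test.

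RP24-159O13.1 carries a clone name, is not in the annotation used here and has no coordinates. It stood at 87.3, 94.6, 72.5 and 142 CPM in ctrl and at 26.5, 13.2, 16.1 and 10.5 CPM in ko, without overlap, and fell by 2.54 ± 0.35 (adjusted p = 0.0126). It was too low in Ly6Clo MHCIIhi for the barcode test. There, in the 5 replicates with both classes, it had 6, 7, 10, 2 and 2 counts in the A/T-rich libraries of ctrl 5 to 8 and ko 4, and 0, 1, 5, 1 and 1 in their G/C-rich libraries, fewer in every pair. Over all Ly6Clo MHCIIhi libraries it had 51 counts in 3759863 with A/T-rich and 14 in 4082172 with G/C-rich barcodes, or 13.6 and 3.43 CPM without TMM scaling.

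The calls rested on few libraries. With ctrl 4, ko 2, ko 3 or ko 4 left out in turn, no gene passed, without ctrl 1, ctrl 2 or ko 1 RP24-159O13.1 alone passed, and without ctrl 3, which had the lowest ctrl value of all 3 genes, 7 passed. The log2 fold changes moved little in these fits, from -1.91 to -1.55 for Gas7, from -2.17 to -1.77 for Dpysl2 and from -2.87 to -2.31 for RP24-159O13.1. DESeq2 called 11 genes (0.277%), 10 lower (0.252%) and 1 higher (0.0252%): Gas7, Dpysl2, Actr2, Dusp3, Klf2, Nr4a1, Plec, Ptafr, Rassf4 and Zfp710 below ctrl and Tgm2 above it. Of these 11, 6 also passed the barcode test, against 89 of all 4945 genes tested by class (1.80%).

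**Figure D1:**
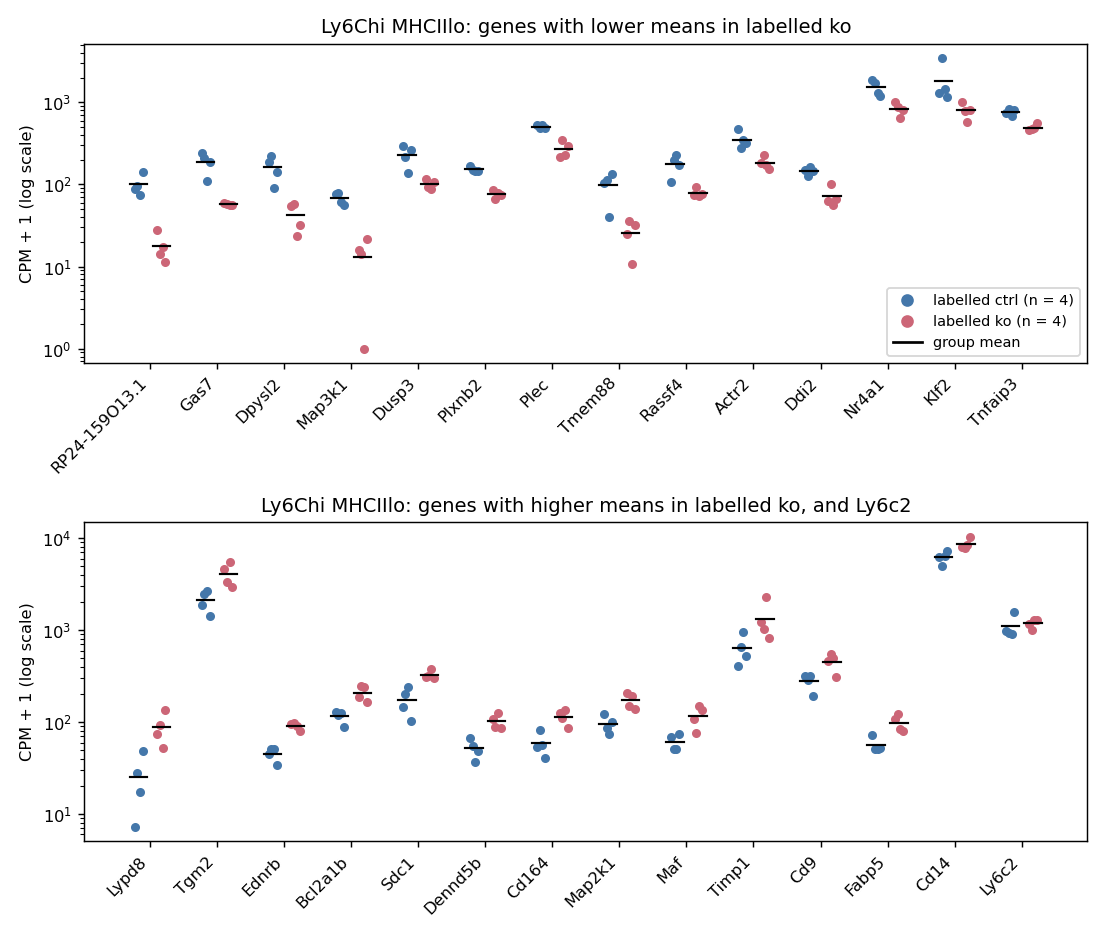
Level of 28 named genes in each Ly6Chi MHCIIlo library, as CPM + 1 on a log axis, with blue points for ctrl, red points for ko (n = 4 each) and black bars for group means. Only RP24-159O13.1, Gas7 and Dpysl2 passed the adjusted test. In the upper panel no gene overlaps between groups, and Gas7 in ko lies within 54.6 to 58.8 CPM.

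By barcode class 89 of 4945 genes (1.80%) differed inside the 5 Ly6Clo MHCIIhi replicates. In the G/C-rich library 82 of the 4945 (1.66%) were lower and 7 (0.142%) higher. Dpysl2 was at 448, 418, 357, 303 and 313 CPM in the A/T-rich libraries of ctrl 5 to 8 and ko 4, and at 92.9, 83.5, 40.7, 47.5 and 83.9 CPM in their G/C-rich libraries. Gas7 was at 202, 246, 199, 157 and 152 CPM in the first and at 73.2, 54.0, 111, 72.7 and 78.6 CPM in the second. For both genes every G/C-rich library was below every A/T-rich library, whatever the genotype, and Gas7 ranged from 54.0 to 111 CPM in the G/C-rich libraries, against 54.6 to 58.8 CPM in ko of Ly6Chi MHCIIlo. In 3 further replicates, ko 5, 7 and 8, both libraries had G/C-rich barcodes, and there the log2 difference between libraries ranged from -0.34 to 0.81 for Dpysl2 and from -0.18 to 0.16 for Gas7. In 4 of the 5 pairs with both classes the G/C-rich library was library 1, so class and library number were partly shared: with library number in the model 47 genes passed, all of them among the 89. Across replicates, in library 1 of 16 Ly6Clo MHCIIhi replicates, barcode class called 80 of 4510 genes (1.77%), and 52 of them were among the 89. In both genotypes the A/T-rich barcodes there belonged to replicates 1 to 4 and the others to replicates 5 to 8, so class and replicate set cannot be told apart.

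**Figure D2:**
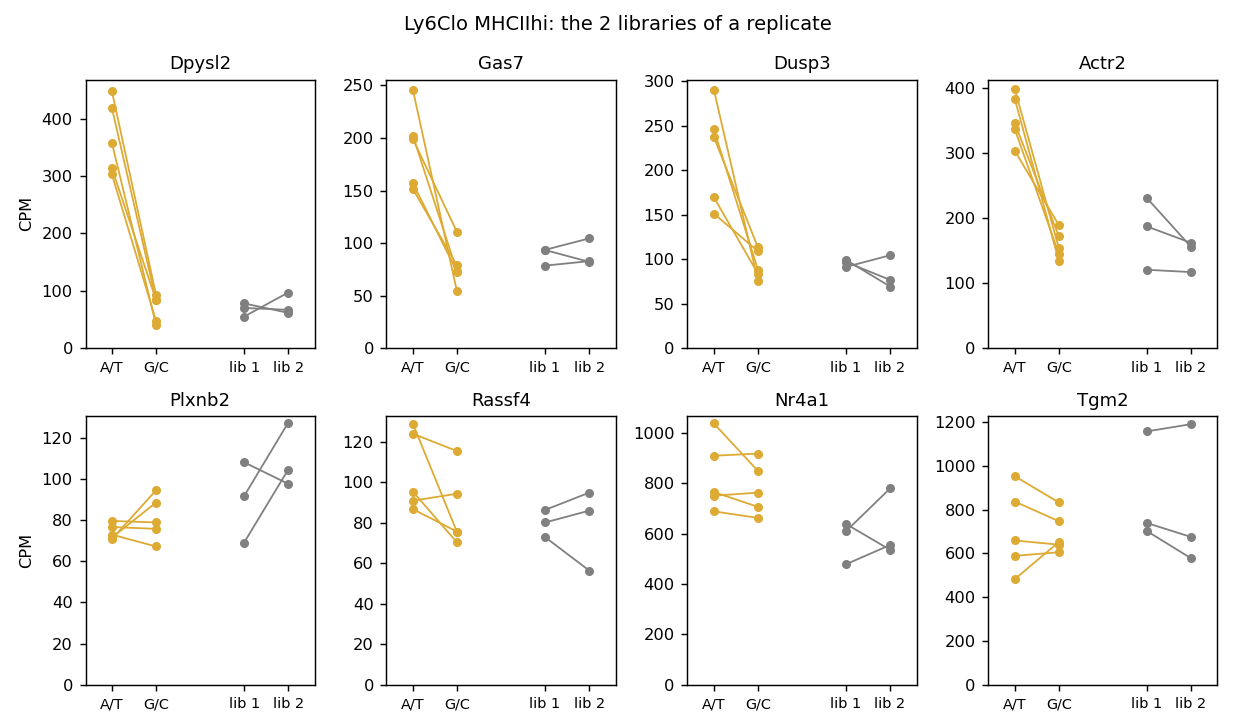
CPM of 8 genes in the Ly6Clo MHCIIhi replicates that had 2 libraries, with each line joining libraries of the same replicate number. Yellow lines join an A/T-rich to a G/C-rich library (5 replicates) and grey lines join libraries that are both G/C-rich (3 replicates). Dpysl2, Gas7, Dusp3 and Actr2 drop in all 5 yellow pairs, whereas Plxnb2, Nr4a1 and Tgm2 go in both directions.

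The genes that differed by barcode class were mostly lower in ko as well. Of 68 genes called lower by class and tested in Ly6Chi MHCIIlo, 64 (94.1%) had a negative ko difference, against 51.0% of all 3739 genes tested in both. At an unadjusted p under 0.05, 37 of the 68 (54.4%) were lower in ko, against 220 of the 3739. The median ko difference of the 68 was -0.59, against -0.01 over all 3739. Seen from the other side, these 37 were 16.8% of the 220 genes lower in ko, whereas the 3739 held 68 genes called lower by class. Of 188 genes higher in ko, 3 (1.60%) were called by class in either direction, near the share in all genes, 74 of 3739. Across the 3739 genes the ko and barcode differences had a Pearson correlation of 0.231 and a Spearman correlation of 0.149, given as a description, since genes are not independent and the libraries share depth and barcode design. A fit of all libraries but 1 of low depth, with barcode class included, called no gene for ko in Ly6Chi MHCIIlo by edgeR (0 of 6520, 0.00%), and 413 (6.33%) had an unadjusted p under 0.05. The same fit without class, in which 8 replicates likewise entered as 2 libraries each, also called 0 genes by edgeR (629 at an unadjusted p under 0.05), with Dpysl2 at -1.97 (adjusted p = 0.317) and Gas7 at -1.71 (adjusted p = 0.117). With class in the fit, the differences of Dpysl2 (0.48), Actr2 (0.23), Dusp3 (0.14), Ptafr (0.082) and Abcg1 (0.39) turned positive. Those of Gas7, Map3k1, Tmem88, Ddi2 and Zfp710, also called lower by class, stayed negative. Class varied within a genotype only in Ly6Clo MHCIIhi, so the class term rests on that population.

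**Figure D3:**
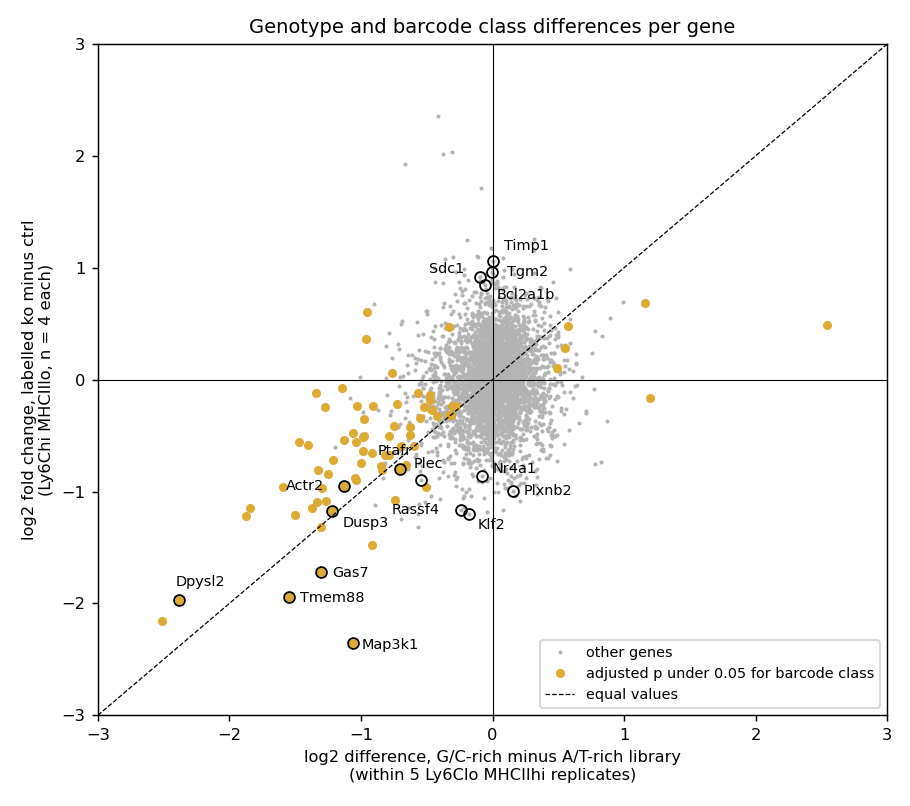
For each of 3739 genes, the log2 difference between G/C-rich and A/T-rich libraries inside 5 Ly6Clo MHCIIhi replicates (horizontal) and between ko and ctrl in Ly6Chi MHCIIlo (vertical), with yellow points for genes past an adjusted p of 0.05 for barcode class. Of the 68 yellow points left of 0 that were called lower by class, 64 lie below the horizontal line. Plxnb2, Nr4a1, Klf2, Tgm2, Sdc1 and Bcl2a1b are offset vertically but lie near 0 on the horizontal axis, and Rassf4 lies at -0.24 on it.

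Among the 57 named genes with a ko test, 50 could be tested for barcode class and 11 passed. They were 10 of the 24 with lower ko means and 1 of the 26 with higher ko means, Cd14. Over all genes tested by class, 89 of 4945 (1.80%) passed. Most named genes were picked for a small p in the ko comparison, where genotype and class cannot be told apart. Their share is therefore no separate result. Besides Gas7 and Dpysl2, the 10 with lower ko means were Map3k1, Dusp3, Tmem88, Actr2, Ddi2, Ptafr, Zfp710 and Abcg1.

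Of those, Map3k1 and Dusp3 act in MAP kinase signalling. Map3k1, the kinase MEKK1 that starts a MAP kinase cascade (chr13:111746428-111808993, minus strand), was at 74.9, 76.6, 59.3 and 54.8 CPM in ctrl and 14.7, 13.2, 0 and 20.9 CPM in ko. Its ko difference was -2.36 ± 0.46 (adjusted p = 0.111) and its barcode difference -1.06 ± 0.21. Dusp3, a phosphatase that inactivates MAP kinases (chr11:101971143-101987013, minus strand), was at 293, 212, 138 and 259 CPM in ctrl and 115, 92.2, 86.8 and 105 CPM in ko. Here the ko difference of -1.17 ± 0.24 (adjusted p = 0.123) and the barcode difference of -1.22 ± 0.16 were almost equal. For neither gene did the genotypes overlap.

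Actr2 encodes ARP2, a core subunit of the Arp2/3 complex that starts branched actin filaments (chr11:20062304-20112913, minus strand). It was at 468, 275, 346 and 314 CPM in ctrl and 179, 228, 174 and 152 CPM in ko, with a ko difference of -0.95 ± 0.21 and a barcode difference of -1.13 ± 0.13. Ptafr, the receptor for platelet-activating factor, differed by -0.80 ± 0.18 and by -0.71 ± 0.12 with class. Abcg1, which exports cholesterol, differed by -1.21 ± 0.33 and -1.50 ± 0.17, Zfp710, a zinc finger protein, by -1.48 ± 0.37 and -0.92 ± 0.20, Ddi2, a protease, by -1.07 ± 0.24 and -0.74 ± 0.19, and Tmem88, a membrane protein, by -1.94 ± 0.41 and -1.55 ± 0.31. Cd14, the co-receptor for bacterial lipopolysaccharide, went the other way: 6211 ± 943 CPM in ctrl and 8625 ± 1171 in ko, a difference of 0.47 ± 0.16 against -0.33 ± 0.08 with class.

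Other genes had lower ko values with a barcode difference near 0 or uncalled. Plxnb2, the receptor plexin-B2 for class 4 semaphorins (chr15:89155549-89180788, minus strand), was at 165, 149, 145 and 146 CPM in ctrl and 85.3, 65.8, 77.1 and 73.2 CPM in ko. Both groups were tight and far apart, with a ko difference of -0.995 ± 0.20 (adjusted p = 0.123), while barcode class gave 0.15 ± 0.18. Inside the 5 replicates with both classes, Plxnb2 was at 79.5, 71.5, 76.6, 72.9 and 70.7 CPM in A/T-rich and 78.8, 88.4, 75.7, 67.1 and 94.4 CPM in G/C-rich libraries, lower in 3 and higher in 2.

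Rassf4, a Ras-association domain protein (chr6:116633008-116673952, minus strand), was at 106, 198, 224 and 172 CPM in ctrl and 73.6, 92.2, 70.7 and 75.8 CPM in ko. Its ko difference was -1.17 ± 0.25 (adjusted p = 0.128) and its barcode difference -0.24 ± 0.17. Plec, the cytoskeletal linker plectin (chr15:76170974-76232574, minus strand), was at 521, 482, 521 and 486 CPM in ctrl and 215, 351, 225 and 290.3 CPM in ko, with -0.90 ± 0.19 (adjusted p = 0.123) by genotype and -0.55 ± 0.18 (adjusted p = 0.178) by class. Both genes were lower in all 4 ko libraries than in any ctrl library. Though not called by class, both were also lower in the G/C-rich library in 4 of the 5 pairs with both classes.

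Immediate early genes, the first to be transcribed after a stimulus because they need no new protein, leaned below ctrl. Of 21 tested, 20 (95.2%) had negative differences, against 51.4% of all genes. At an unadjusted p under 0.05, 8 (38.1%) were lower, and 5 (23.8%) did not overlap, against 6.30% and 3.93% of all genes. The list median was -0.44, against -0.02 over all genes tested, and its barcode median was -0.06. None passed the adjusted test in edgeR. By class 2 of 20 tested members, Junb and Fosl2, were called lower, against 1.66% of all genes, and both lie outside these 8.

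Nr4a1, an orphan nuclear receptor that patrolling monocytes need (chr15:101254269-101274795, plus strand), was at 1849.9, 1731, 1289 and 1194 CPM in ctrl and 1015, 869, 639 and 803 CPM in ko. The lowest ctrl library was above the highest ko library, with a difference of -0.87 ± 0.19 (adjusted p = 0.128) and a barcode difference of -0.08 ± 0.08. Klf2, a transcription factor that restrains inflammatory activation, was at 1313, 3416, 1460.1 and 1172 CPM in ctrl and 1018, 790.2, 572 and 808 CPM in ko. Its difference was -1.20 ± 0.30, but ctrl 2 was far above the rest, and without it the difference was -0.72.

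Btg2, which slows cell division, Ier2, an early-response gene, and Jun, a subunit of AP-1, had differences of -0.70 ± 0.18, -0.66 ± 0.19 and -0.81 ± 0.27. Btg2, though not called by class, was lower in the G/C-rich library of all 5 pairs with both classes, by -0.46 to -0.13. Ier5, Egr1 and Klf6 were also lower at an unadjusted p under 0.05, and Nr4a2, the only positive member, had 0.29. Ctrl 2 was the highest ctrl library for Klf2, Btg2, Ier2, Jun, Ier5 and Egr1. Without it 4 members remained lower at an unadjusted p under 0.05, and the median was between -0.54 and -0.29 over all fits that left out 1 library. The same library was high for heat shock genes: Hspa8, the constitutive HSP70 chaperone, was at 1310.2, 2745, 1246 and 1636 CPM in ctrl and 1209, 1207, 1093 and 1127 CPM in ko, a difference of -0.58 that was -0.27 without ctrl 2. Of 12 heat shock genes 11 (91.7%) had negative differences, against 51.4% of all genes, with a list median of -0.31. Without ctrl 2, however, that median was 0.18.

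Among the genes induced by NF-kB, the transcription factor that drives inflammatory genes, the list's 3 smallest p among lower members belonged to Tnfaip3, Nfkbiz and Nfkbia. Tnfaip3, which encodes the ubiquitin-editing enzyme A20, was at 742, 825, 676 and 803 CPM in ctrl and 456, 469.7, 485 and 552 CPM in ko. The groups were well apart, with a difference of -0.63 ± 0.16 (adjusted p = 0.187) and a barcode difference of -0.05 ± 0.09. Nfkbia, which encodes IkB-alpha, averaged 4989 ± 265 CPM in ctrl and 3927 ± 284 in ko, and Nfkbiz, which encodes IkB-zeta, 862 ± 109.6 and 619 ± 108. Over the 21 tested NF-kB targets and inflammatory cytokines, 4 (19.0%) were lower and 1 (4.8%) higher at an unadjusted p under 0.05, against 6.30% and 4.89% of all genes, with a median of -0.24 and a barcode median of -0.02. The 4 were 2 without ko 3 and 6 without ko 2, and none passed the adjusted test in edgeR. Of the cytokines only Il23a was among the 4.

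Among the named genes with higher ko means, barcode class called 1 of 26, against 1.80% of all genes tested by class. Tgm2, a transglutaminase that crosslinks proteins (chr2:158116402-158146436, minus strand), was at 1881, 2492, 2673 and 1439 CPM in ctrl and 4637, 3345, 5546 and 2971 CPM in ko. All ko libraries were above all ctrl libraries, with a difference of 0.96 ± 0.23 (edgeR adjusted p = 0.154, DESeq2 adjusted p = 0.016), and the barcode difference was -0.0026 ± 0.09. Sdc1, the heparan sulfate proteoglycan syndecan-1, was at 147, 203, 237 and 102 CPM in ctrl and 309, 316, 379 and 301 CPM in ko, a difference of 0.92 ± 0.23 (adjusted p = 0.187) against -0.10 ± 0.15 by class. Timp1, which inhibits matrix metalloproteinases, had 1.06 ± 0.31 with overlapping groups, and 0.67 without ko 3.

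These genes belong to lists that leaned above ctrl. Of 15 tumour-associated macrophage genes, 5 (33.3%) were higher at an unadjusted p under 0.05, against 4.89% of all genes, and none lower: Tgm2, the tetraspanin Cd9, the fatty acid carrier Fabp5, the lipid droplet protein Hilpda (0.59, and 0.38 without ctrl 4) and Arg1, which breaks down arginine. The list median was 0.46 and its barcode median -0.09. Arg1 was at 627, 415, 1117 and 383 CPM in ctrl and 1318, 1809, 935 and 594 CPM in ko, with overlap, and Cd9 at 278 ± 58.0 and 455 ± 102. Of 21 matrix genes, 5 (23.8%) were higher (Tgm2, Sdc1, Timp1, Tgfbi and Hbegf) and none lower, with a median of 0.20. Without ctrl 4 the number higher was 3 in both lists, and without ctrl 3 it was 6 and 9.

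Of 18 survival and cell death genes, 11 (61.1%) had positive differences, against 48.6% of all genes, and the median was 0.10. At an unadjusted p under 0.05, 4 (22.2%) were higher, against 4.89% of all genes, and none lower, but 3 of these 4 were copies of Bcl2a1. Bcl2a1b, an inhibitor of apoptosis of the A1 family, was at 128, 117, 125 and 87.6 CPM in ctrl and 185, 246, 238 and 165 CPM in ko, a difference of 0.85 ± 0.21 (adjusted p = 0.187). Bcl2a1a and Bcl2a1d, near-identical copies that could share its reads, had 0.72 ± 0.26 and 0.65, so their split is uncertain. Bax, which promotes apoptosis, was higher as well, at 131 ± 19.98 and 190.0 ± 17.7 CPM. It was also higher in the G/C-rich library in 4 of the 5 pairs with both classes.

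The nuclear genes of oxidative phosphorylation, the mitochondrial machinery that makes ATP, had small differences, most of them positive. Of 56 tested, 49 (87.5%) had positive differences, against 48.6% of all genes. At an unadjusted p under 0.05, 13 (23.2%) were higher, against 4.89% of all genes, and none lower. In 17 (30.4%) every ko library was above every ctrl library, against 3.63% of all genes. Uqcrb, a subunit of complex III, was at 215, 153, 175 and 194 CPM in ctrl and 324, 307, 225 and 309 CPM in ko, a difference of 0.65 ± 0.19 (adjusted p = 0.226). Cox7c of complex IV and Atp5k of ATP synthase had 0.66 ± 0.23 and 0.43 ± 0.16. Uqcrb, Cox7c and Atp5k were each higher in the G/C-rich library in 4 of the 5 pairs with both classes. The list median was 0.22, but by barcode class the same list had a median of 0.14 in the same direction, with no member called. With class in the fit of all libraries the median was 0.14. Without ctrl 3 the count of 13 was 7.

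Genes of monocyte maturation gave no common direction. The classical monocyte list had a median of 0.11, with Hp (haptoglobin) at -0.44 ± 0.18 and Cd14 at 0.47 ± 0.16. Of 14 mature macrophage genes, 2 (14.3%) were higher at an unadjusted p under 0.05, against 4.89% of all genes, and none lower. They were Maf, a transcription factor of macrophages, with 0.94 ± 0.27, and Fcgr1, the high-affinity IgG receptor, with 0.70 ± 0.27. Maf was at 68.6, 49.6, 49.4 and 73.0 CPM in ctrl and 106, 74.6, 148 and 133 CPM in ko, without overlap. None of 14 type I interferon response genes had an unadjusted p under 0.05 in edgeR, and glycolysis and hypoxia genes had 2 of 19 (10.5%) higher, Hilpda and Ldha, against 4.89% of all genes. That count was 0 without ctrl 4 and 6 without ko 4. Chemokine ligands had 2 of 12 (16.7%) higher, Ccl7 and Ccl24, both with overlapping groups, and this count was 0 without ko 2 and 3 without ctrl 2. Without ko 2 the differences of Ccl7 and Ccl24, 1.16 and 1.11, were 0.69 and 0.52.

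In the cytoskeleton and MAP kinase lists, 3 of 45 and 2 of 18 members were called by barcode class, against 1.80% of all genes tested by class. Of 46 actin and microtubule regulators, 8 (17.4%) were lower and 1 (2.2%) higher, against 6.30% and 4.89% of all genes, with a median of -0.16, and the 2 that passed the adjusted test, Gas7 and Dpysl2, were both called by class. Among the other 6, Plxnb2, Plec, Coro1a, Lsp1, Map4 and Marcksl1, none was called by class. Coro1a, an actin-binding coronin of leukocytes, averaged 612 ± 91.2 CPM in ctrl and 436 ± 28.1 in ko. Of 18 MAP kinase genes, the 2 (11.1%) that were lower, Map3k1 and Dusp3, were called by class, and the 1 that was higher, Map2k1 (the kinase MEK1), was not, at 94.6 ± 20.9 and 172 ± 32.7 CPM.

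**Figure D4:**
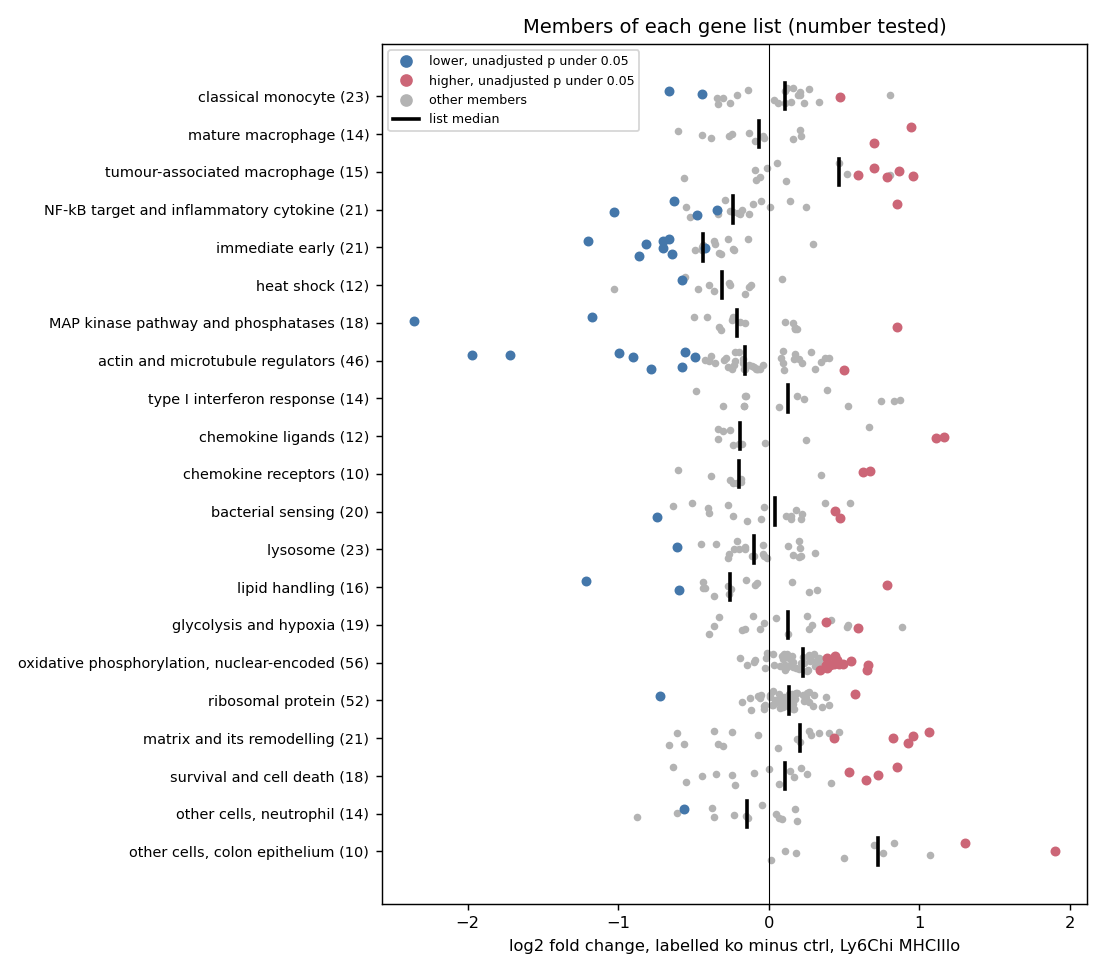
Log2 difference of ko against ctrl for each tested member of the lists with 5 or more tested members, with blue points for members lower and red points for members higher at an unadjusted p under 0.05, grey points for the rest and black bars for list medians. Immediate early genes have a median of -0.44 and no red point, and oxidative phosphorylation genes a median of 0.22 and no blue point.

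Transcripts of other cells were also present, and no member of their lists passed the adjusted test in edgeR. Lypd8, a protein of colon epithelium that keeps bacteria off the surface, was at 6.24, 27.0, 16.5 and 47.5 CPM in ctrl and 73.6, 92.2, 51.4 and 136 CPM in ko, a difference of 1.90 ± 0.45 (adjusted p = 0.154). All 10 tested epithelial markers had positive differences, against 48.6% of all genes. Of these 10, 2 were higher at an unadjusted p under 0.05, against 4.89% of all genes. The summed level of the epithelial markers ranged from 318 to 1128 CPM in ctrl and from 918 to 1554 in ko. The groups overlapped in that sum. The barcode median of the 3 that could be tested was 0.36, and with class in the fit of all libraries the ko median of 0.73 over the list was 0.11. The 4 globin genes tested, near-identical copies whose split is uncertain, had a median difference of 2.03, with summed erythroid levels of 36.5 to 883 CPM in ctrl and 54.6 to 2090 CPM in ko. Ednrb, an endothelin receptor listed as an endothelial marker, was at 43.9 ± 7.85 and 89.8 ± 8.03 CPM. Sdc1 is also a plasma cell marker, but Igkc, the kappa light chain, had a difference of -2.16, rested on 4955 CPM in ctrl 4 and was called lower by class. The part of these cells in the differences above was not tested.

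The genes lower in ko had long transcripts. Median length in GENCODE M21 was 3895 bases for 243 genes lower at an unadjusted p under 0.05, 1708 for 166 higher genes and 2833 for all 3688 tested genes with a transcript. For the 80 genes called lower by barcode class it was 3948. A run of at least 8 A on the transcript strand was present in 42.8% of the lower and 21.1% of the higher genes, in 30.5% of all and in 53.8% of those called lower by class. With the genes called by class set aside, the lower genes had a median length of 3778 bases and such a run in 39.3%. In Dpysl2 the longest run, of 8 A, lies in the 3′ UTR within chr14:66803603-66803632 (GRCm38, minus strand), 750 bases before the transcript end, and in Dusp3 a run of 13 A lies in the 3′ UTR within chr11:101972441-101972470. Gas7 and Ptafr, also called by class, have no run above 7 and 6 A, and Plxnb2, Plec and Rassf4, which were not called, none above 5 A. These matches describe the sequences and say nothing of where the reads started.

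To set the ko difference against the barcode difference directly, the contrast of these 2 differences was tested gene by gene. It takes the barcode difference of Ly6Clo MHCIIhi to hold in Ly6Chi MHCIIlo, which was not tested. In edgeR 0 of 5592 genes passed (0.00%) and 402 (7.19%) had an unadjusted p under 0.05. Plxnb2 had the widest gap relative to its error among the named genes, with a contrast of -1.14 ± 0.26 (unadjusted p = 0.00017, adjusted p = 0.567). For Nr4a1 the contrast was -0.79, for Klf2 -1.02, for Rassf4 -0.91 and for Tnfaip3 -0.58, and for Tgm2, Sdc1 and Bcl2a1b it was 0.96, 1.03 and 0.91. For Dusp3 it was 0.03, for Actr2 0.18, for Ptafr -0.10, for Gas7 -0.42 and for Dpysl2 0.42, each within 1.5 standard errors of 0.

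Genotype could be compared free of barcode class in Ly6Clo MHCIIhi, where library 1 of 16 replicates gave 4 ctrl and 4 ko replicates in each class. There edgeR called 0 of 4510 genes (0.00%), and 212 (4.70%) had an unadjusted p under 0.05. Gas7 had a difference of -0.15 ± 0.20 (unadjusted p = 0.46) and Dpysl2 of 0.12 (unadjusted p = 0.759). Dpysl2 averaged 345 ± 99.3 CPM in ctrl and 408 ± 78.9 in ko with A/T-rich barcodes, and 66.2 ± 25.9 and 69.3 ± 10.1 with G/C-rich barcodes, so it was set apart by class, and ctrl and ko overlapped within each class. Nr4a1 was lower in ko in both classes, at 999 ± 230.2 and 724 ± 135 CPM with A/T-rich and 809.8 ± 93.3 and 593 ± 77.3 with G/C-rich barcodes, a difference of -0.46 ± 0.12 (unadjusted p = 0.001, adjusted p = 0.696). Tnfaip3 had -0.53 ± 0.17, Hspa8 -0.47 and Nfkbiz -0.45, also short of the adjusted threshold, whereas Plxnb2 had 0.01 ± 0.18 and Tgm2 0.29 ± 0.15.

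In Ly6Clo MHCIIlo and Ly6Chi MHCIIhi the ctrl libraries are again A/T-rich and the ko libraries G/C-rich, so both comparisons carry the same overlap of genotype and class. In Ly6Clo MHCIIlo 1 gene of 3182 passed (0.0314%), Dpysl2 with -1.68 ± 0.25, and in Ly6Chi MHCIIhi 0 genes of 3509 passed (edgeR, 0.00%) while 244 (6.95%) had an unadjusted p under 0.05. Tgm2 was positive in both, at 0.53 ± 0.18 and 1.13 ± 0.45. Plxnb2 had -0.17 ± 0.26 and 0.20 ± 0.51 there, Maf -0.03 ± 0.18 and -0.14 ± 0.35. The Ly6Chi MHCIIhi values rest on 3 ctrl libraries, of 78264, 34362 and 243339 counts. The highest of these held 32879 CPM of the neutrophil marker S100a8, against at most 548 CPM in ko of that population. No interaction with population passed in edgeR: 0 of 4336 (0.00%) against Ly6Clo MHCIIlo, 0 of 4756 against Ly6Chi MHCIIhi and 0 of 5702 against Ly6Clo MHCIIhi, where 221 (5.10%), 236 (4.96%) and 324 (5.68%) had an unadjusted p under 0.05. The smallest adjusted p among the named genes was 0.595. In Ly6Clo MHCIIhi, ctrl has 8 A/T-rich and 4 G/C-rich libraries and ko has 4 and 8, so genotype and class overlap only in part. The interaction with that population therefore carries part of the barcode difference of Ly6Chi MHCIIlo as well. The interaction of Gas7 was -1.15 ± 0.36, -1.21 ± 0.43 and -1.26 ± 0.46 against these populations in turn, and that of Plxnb2 -0.80 ± 0.31, -1.19 ± 0.49 and -1.13 ± 0.25. With a replicate block, 8 genes passed against Ly6Chi MHCIIhi, and without a count filter 13, 47 and 20 passed against the 3 populations in turn.

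**Figure D5:**
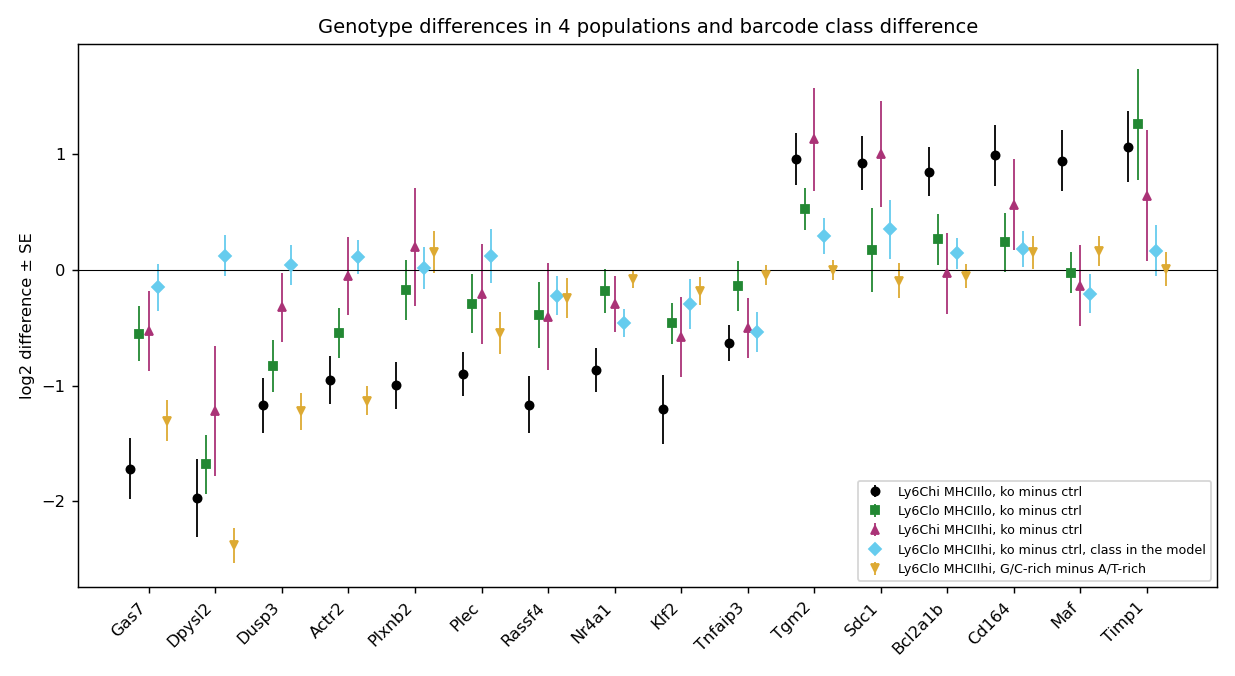
Log2 difference with its SE for 16 named genes: ko against ctrl in Ly6Chi MHCIIlo, Ly6Clo MHCIIlo and Ly6Chi MHCIIhi, ko against ctrl in Ly6Clo MHCIIhi with barcode class in the model, and G/C-rich against A/T-rich inside 5 Ly6Clo MHCIIhi replicates. Dpysl2 is at -1.97 by genotype in Ly6Chi MHCIIlo, -2.38 by class and 0.12 by genotype with class in the model. Nr4a1 and Tnfaip3 are below 0 by genotype in all 4 populations.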

How the data were processed

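RNA of sorted cells was sequenced from the 3′ end of poly(A) transcripts with a sample barcode per library, per the labels' protocols. The authors deposited whole-number counts per gene symbol, with no normalization recorded. Per the submitters' processing notes the genome build was GRCm38, with DESeq2 1.18.1 and R 3.4.4 among the tools. The aligner and counter, and whether a count is a molecule or a read, are not stated in the sources used here, so floors of 3 counts cover counting error only. Of 24537 gene rows, 15856 (64.6%) matched a symbol of GENCODE M21. A row that names no gene (127 counts, 0.000967%) was removed, and some genes are not reported here.

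Genes kept by filterByExpr (minimum count 10, minimum total 15) entered glmQLFit and glmQLFTest of edgeR 4.0.16 (R 4.3.3), a quasi-likelihood model, with TMM scaling, and p-values were adjusted by Benjamini-Hochberg over every gene tested. Adjusted p-values are from edgeR unless DESeq2 1.42.0 is named. CPM were computed by edgeR from library totals scaled by TMM. The SE of a log2 difference is its size divided by the square root of F. Barcodes with at most 1 G or C of 6 were A/T-rich and those with at least 3 G/C-rich. The barcode test used replicate as a block. Interactions and pooled fits left out 1 library under 28006.25 counts, a ctrl library of Ly6Chi MHCIIhi, and interactions added libraries of a replicate. The fits were tested on simulated data. Ccl17 was tested by an exact permutation test of log2(CPM + 1).

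The members and 30 gene lists (690 genes) were chosen with earlier results of these data known, and lists are described by counts and medians only. Named are genes that passed, 8 further genes per direction with the smallest p, at least 20 CPM in the higher group and all ko libraries on the same side of the ctrl mean, genes DESeq2 called, up to 3 members per list with the smallest unadjusted p under 0.05, and Ccl17, Ccl22, Ccr4, Ly6c2 and Cd74. Other list members, Bcl2a1d, Il23a and the globins among them, were named after their values were seen. The labels do not say whether replicates came from different animals, so a p-value reflects only how far these samples spread, which may be technical. Alternatives were DESeq2 size factors and test, no filter, a minimum count of 30, all 8 groups in 1 fit, a replicate block, pooled fits with and without barcode class, library number, pseudocounts of 0.5 and 5, and dropping replicates in turn. Chosen later, with the data in view, were the contrast of ko and barcode differences and a fit without genes called by class.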

Additional observations from a re-analysis of the deposited data

Results flagged for a closer look

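In 118 groups of 4 values checked over the named genes, 6 held a value set apart from the other 3 by more than Dixon's 95% limit, and chance flags about 1 in 20 groups. Klf2 in ctrl 2 was at 3416 CPM, Ly6c2 in ctrl 4 at 1592, Soat1 in ctrl 3 at 458.1 and Fabp5 in ctrl 1 at 71.75, each above the other ctrl libraries. Ccl7 in ko 2 was at 136.1 CPM, above the other ko libraries, and Uqcrb in ko 3 at 224.9, below them.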

How the results depend on the processing

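The count of 3 genes in ko against ctrl was 11 with the DESeq2 test, 61 without a count filter (28 lower, 33 higher), 1 with a minimum count of 30, 0 in the pooled fits with and without barcode class, 1 without the genes called by class (chosen after seeing the data), and 0 to 7 when 1 replicate was left out. Of the 61, 38 were among the genes tested in the main comparison. The barcode count of 89 was 47 with library number added and 52 to 98 when 1 replicate was left out. Without a count filter, genotype at matched class gave 49 genes in place of 0, the interactions 13, 47 and 20 (Ly6Clo MHCIIlo, Ly6Chi MHCIIhi and Ly6Clo MHCIIhi), and the contrast of differences 18. With barcode class in the pooled fit the log2 differences of Abcg1 (0.39), Actr2 (0.23), Dpysl2 (0.48), Dusp3 (0.14), Ptafr (0.082) and Ly6c2 (-0.35) changed sign, and the median of chemokine ligands ranged from -0.30 (without ko 3) to 0.055 (without ctrl 4) when 1 replicate was left out. In those cases the cause was not tested, beyond the fewer or other genes and samples each setting uses. Equal replicate numbers deviated together by correlations of 0.172, 0.0371, -0.0933 and 0.0857, and 2 of 8 samples correlated best with their own number. These values gave no sign of pairing by replicate number, but with so few samples they cannot exclude it. A replicate block gave 4 calls in place of 3, and 8 in the interaction with Ly6Chi MHCIIhi. At these depths a transcript under about 10 counts per library could not be tested.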
